A study of Mus musculus with 4 samples.

Results

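The genes described here encode 8 receptor chains that bind osteopontin, the secreted phosphoprotein made from Spp1: the hyaluronan receptor Cd44 and the integrin subunits Itgav, Itgb1, Itgb3, Itgb5, Itga4, Itga5 and Itga9. They were chosen by name, as 8 of the 31053 features counted, and followed through lymphocytes, dendritic cells, neutrophils and the few cells carrying Hmga2 and Rhox5. The study counted RNA in single CD45-positive lung cells by droplet 3' sequencing to compare mice lacking Rab37 with wild-type mice, with and without a lung tumor. There were 4 groups of 1 library each: Rab37 KO tumor and WT tumor, from C57BL/6 mice injected with LLC, a carcinoma line of mouse lung, and Rab37 KO normal lung and WT normal lung, from mice given Matrigel. All were taken at day 14, live cells were sorted for CD45, and the labels give neither the number of animals behind a library nor how the Rab37 allele was made. With 1 library a group, no test between groups was possible. Every interval below is an exact 95% interval for counting error alone.

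Osteopontin reaches cells through 2 kinds of receptor. Integrins are pairs of an alpha and a beta chain. The pairs of the alpha-v chain with beta-1, beta-3 or beta-5, and the alpha-5 beta-1 pair, read the Arg-Gly-Asp (RGD) motif that osteopontin shares with fibronectin and thrombospondin-1. The alpha-4 beta-1 and alpha-9 beta-1 pairs read a neighbouring stretch that thrombin cleavage exposes, and CD44, an adhesion receptor of most leukocytes, has been described as a further osteopontin receptor whose variant exons take part in binding. In lung tumors osteopontin is known as a macrophage product that acts on cell adhesion, migration and survival.

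The coding sequence for the stretch that the integrin pairs bind is shown for ligands found in the libraries. The pairs divide by which part of that stretch they read. Each run holds 66 bases of GRCm38/mm10 (GENCODE vM21), 5′ to 3′ on the coding strand, with the 3 RGD codons in capitals and, for Spp1, also the 7 codons that follow them, the site of alpha-4 and alpha-9.
Spp1: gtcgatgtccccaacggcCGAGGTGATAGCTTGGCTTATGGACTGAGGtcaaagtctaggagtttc
Fn1: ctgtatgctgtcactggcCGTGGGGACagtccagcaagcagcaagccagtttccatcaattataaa
Thbs1: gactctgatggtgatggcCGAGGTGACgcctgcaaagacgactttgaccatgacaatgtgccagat
The Spp1 run lies in exon 7 at chr5:104439463-104439528 on the plus strand, where RGD begins at codon 145 of 295. The fibronectin run lies in exon 30 at chr1:71606707-71606772 on the minus strand, at codon 1614 of 2477. It is 1 of 2 RGD sites of that sequence, and the other, at codon 2181, is not shown. The thrombospondin-1 run joins exons 17 and 18 of the plus strand of chromosome 2, at codon 927 of 1171. The receptor genes lie apart from one another except on chromosome 2, which holds Cd44 (102811141 to 102901665, minus strand), Itgav (83724397 to 83806916) and Itga4 (79255426 to 79333123).

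After filtering, 13078 of 14396 barcodes remained: 2725 of Rab37 KO tumor, 644 of WT tumor, 4646 of Rab37 KO normal lung and 5063 of WT normal lung, with median depths of 6556, 3979, 5486 and 5053 UMIs (unique molecular identifiers, 1 per captured RNA molecule) in that order. Pairs of libraries shared between 0 and 8 barcodes. Rab37 itself was at 0.266 CPM (UMIs of a gene per 1000000 UMIs) in KO tumor against 4.63 in WT tumor, and at 0.385 in KO normal lung against 8.5 in WT normal lung. The tumor libraries differed in sex-linked RNA as well as in genotype: of immune cells, 1657 of 2677 in KO tumor held only Y-linked transcripts and 1 only Xist, while in WT tumor 408 of 631 held only Xist and 0 only Y-linked ones. Rab37 loss and the animals' sex cannot be told apart in tumor, whereas both normal libraries held cells of either kind. A level is the CPM of all UMIs of a cell class in a library, so it describes RNA and not surface protein, and 3' tags count molecules whatever the transcript's length.

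Classes rest on marker genes and are therefore called T-like, NK-like and so on. In the order KO tumor, WT tumor, KO normal lung and WT normal lung, there were 85, 57, 1493 and 1632 T-like cells, 61, 29, 295 and 380 NK-like cells, 65, 55, 648 and 688 B-like cells, 67, 29, 181 and 237 dendritic-like cells, and 1323, 212, 562 and 383 neutrophil-like cells. The tumor values of lymphocytes thus rest on few cells. A member was called higher or lower between 2 libraries when it had at least 10 UMIs over both, a ratio of at least 1.5-fold and an interval that left out 1.

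Cd44 was found in every class and was highest in neutrophil-like cells of normal lung. Neutrophil-like cells stood at 1257 CPM (1232 to 1283) in KO tumor and 881 CPM (807 to 961) in WT tumor, against 3111 CPM (3025 to 3199) in KO normal lung and 2472 CPM (2371 to 2576) in WT normal lung. After each cell had been thinned to 1000 UMIs, 67.3% and 59.2% of neutrophil-like cells of KO and WT tumor held a Cd44 UMI, and 91% and 87.3% of those of KO and WT normal lung (93.7%, 81.6%, 98.6% and 97.7% before thinning). No class is known to lack Cd44, and the lowest, B-like cells, gave 10.8% and 5.45% in KO and WT tumor and 7.91% and 7.28% in KO and WT normal lung after the same thinning. Among the 7 main immune classes, the order from high to low in both normal libraries was neutrophil-like, alveolar macrophage-like, monocyte/macrophage-like and dendritic-like cells, each apart from the next, and then NK-like, T-like and B-like cells, of which NK-like and T-like overlapped in WT and T-like and B-like in KO. In both tumor libraries neutrophil-like and alveolar macrophage-like cells overlapped at the top, and below monocyte/macrophage-like cells the neighbours overlapped. Among lymphocytes of normal lung, B-like cells were at 109 CPM in KO and 91 CPM in WT, T-like cells at 124.5 and 109.9 CPM, and NK-like cells at 173 and 116 CPM. Dendritic-like cells held 233 CPM in KO tumor and 126 CPM in WT tumor, against 525 CPM in KO normal lung and 354 CPM in WT normal lung.

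**Figure D1:**
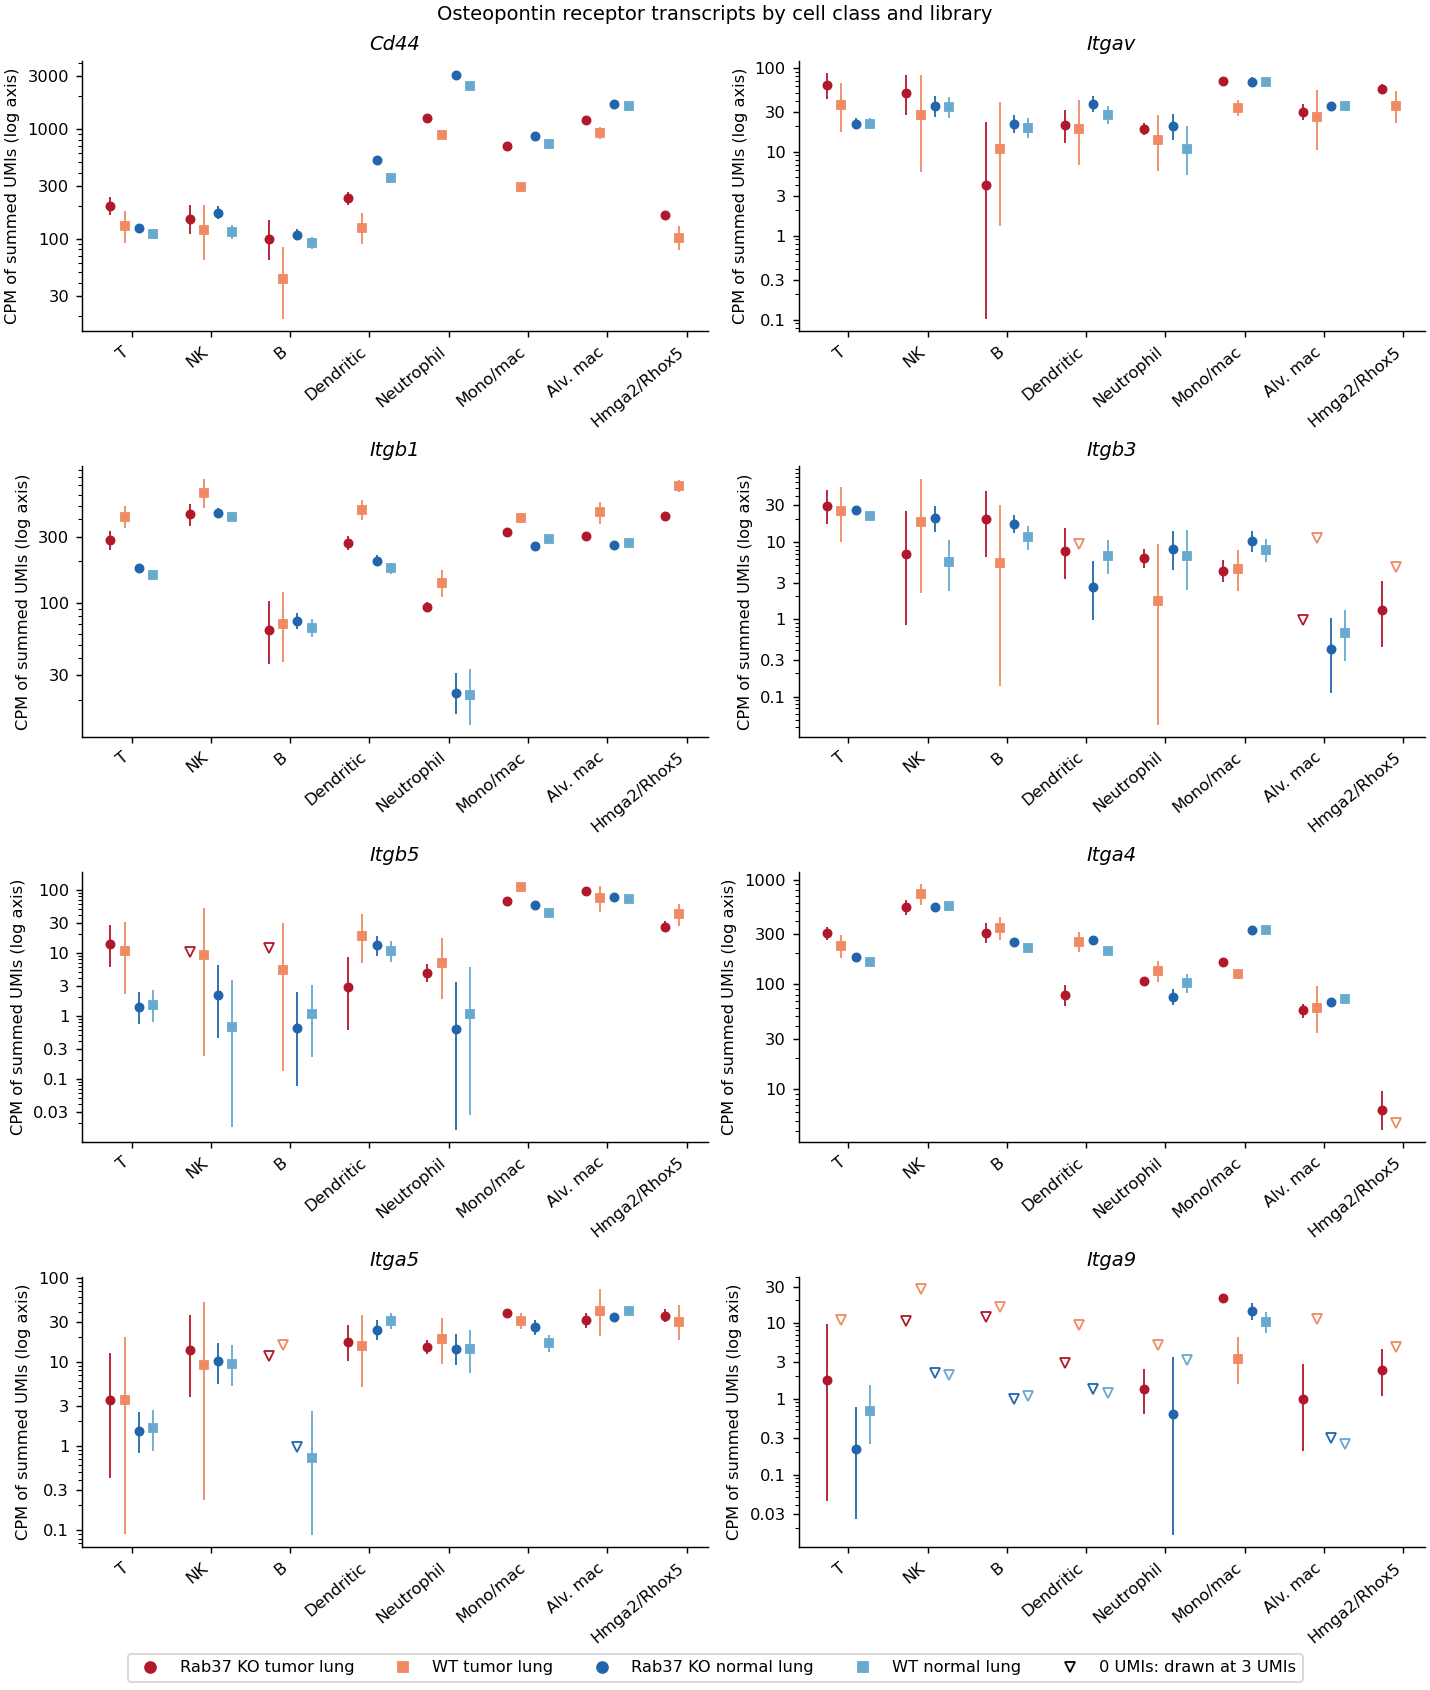
Level of each member (CPM, log axis) by cell class in the 4 libraries, with exact Poisson 95% intervals and open triangles at the value of 3 UMIs where none was counted. Cd44 is highest in neutrophil-like cells of normal lung, at 3111 and 2472 CPM, Itga4 in NK-like cells, and Itgb5 in the macrophage classes.

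Itgb1, the beta chain of the alpha-4, alpha-5 and alpha-9 receptors and of an alpha-v receptor, was highest in NK-like cells among the 7 main immune classes. They held 433 CPM in KO tumor and 617 CPM in WT tumor, against 442 CPM in KO normal lung and 418 CPM in WT normal lung. T-like cells held 281 CPM (239 to 328) in KO tumor and 417 CPM (345 to 500) in WT tumor, against 179 CPM (171 to 188) in KO normal lung and 158 CPM (149 to 166) in WT normal lung. Both tumor values of T-like cells lay above both normal ones without overlap of intervals. Dendritic-like cells held 271 CPM in KO tumor and 465 CPM in WT tumor, against 201 CPM in KO normal lung and 177 CPM in WT normal lung. B-like cells lay between 63.9 and 74 CPM in all 4 libraries. Neutrophil-like cells held 93.5 CPM (86.8 to 101) in KO tumor and 139 CPM (110 to 173) in WT tumor, against 22.6 CPM (15.8 to 31.2) in KO normal lung and 21.8 CPM (13.3 to 33.6) in WT normal lung. In normal lung that was the lowest of the 7 classes, apart from B-like cells next above it.

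The alpha-v chain, encoded by Itgav, was sparse in all these classes and highest in a small lymphocyte class beside them, group 2 innate lymphoid-like (ILC2-like) cells. T-like cells held 61.5 CPM (42.8 to 85.5) in KO tumor and 36 CPM (17.2 to 66.2) in WT tumor, against 21.6 CPM in each normal library. NK-like cells held 49.3 and 27.6 CPM in KO and WT tumor, against 35 and 34.2 CPM in KO and WT normal lung. In dendritic-like and neutrophil-like cells the level lay between 10.9 and 37.1 CPM in every library, and monocyte/macrophage-like cells of the normal libraries, at 68.1 CPM in KO and 67.6 CPM in WT, stood above the other 6 main classes there. B-like cells of the tumors gave 1 UMI in KO and 2 UMIs in WT. ILC2-like cells of normal lung, which make type 2 cytokines, held 432 CPM (364 to 510) in KO (65 cells) and 330 CPM (262 to 411) in WT (54 cells), found in 67.7% and 53.7% of the cells, against 14.6% and 10.3% of NK-like cells of similar depth (medians of 4422 and 3852 UMIs, against 4230 and 3594.5). Their other members were Cd44, at 454 and 347 CPM in KO and WT, Itga4, at 137 and 202 CPM, Itgb1, at 137 and 128 CPM, and Itgb3, at 52.9 CPM (17 UMIs) and 33 CPM (8 UMIs). Of the ILC2-like cells, 13 in KO and 16 in WT normal lung came from cluster 12.5, which scored 2.766 for ILC2 markers and 2.367 for T markers. That cluster may hold T cells, and the levels above do not set it apart. The tumors gave 0 and 2 ILC2-like cells in KO and WT, so nothing can be said of them there.

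Itgb3 and Itgb5, the beta partners that alpha-v uses for osteopontin and vitronectin, were highest in different classes. Among the main classes Itgb3 was highest in T-like cells, at 29.9 CPM in KO tumor and 25.2 CPM in WT tumor, against 26 CPM in KO normal lung and 22.1 CPM in WT normal lung. Only in WT normal lung did the interval of T-like cells lie apart from that of the next class. In B-like cells Itgb3 lay between 11.6 and 20 CPM except in WT tumor, where 1 UMI was found. In NK-like cells it was at 20.4 CPM in KO normal lung and 5.47 CPM in WT normal lung, below the 7.89 CPM of monocyte/macrophage-like cells of that library. Alveolar macrophage-like cells were at 0 in both tumors and at 0.41 and 0.673 CPM in KO and WT normal lung. Itgb5 was highest in the macrophage classes: alveolar macrophage-like cells held 95.8 CPM in KO tumor and 74.6 CPM in WT tumor, against 77.2 CPM in KO normal lung and 70.8 CPM in WT normal lung. T-like cells of normal lung held 1.41 CPM in KO and 1.51 CPM in WT, NK-like and B-like cells no more than 2.18 CPM, and dendritic-like cells 13.2 and 10.9 CPM. Neutrophil-like cells, at 0.627 and 1.09 CPM in KO and WT normal lung, were as low as lymphocytes. The 8 and 3 Itgb5 UMIs of T-like cells in KO and WT tumor gave 14.1 and 10.8 CPM.

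Itga4, the alpha chain that leukocytes pair with beta-1 or beta-7 to bind VCAM-1 and fibronectin, was the leading alpha member of every main immune class. NK-like cells held 546 CPM (463 to 638) in KO tumor and 727 CPM (576 to 906) in WT tumor, against 546 CPM in KO normal lung and 555 CPM in WT normal lung, and in all 4 libraries they stood apart from the class below. B-like cells held 312 and 344 CPM in KO and WT tumor, against 256 and 225 CPM in KO and WT normal lung. T-like cells held 308 CPM (264 to 357) in KO tumor and 234 CPM (180 to 298) in WT tumor, against 184 CPM in KO normal lung and 165 CPM in WT normal lung. Dendritic-like cells held 79 CPM (62.8 to 98.2) in KO tumor and 255 CPM (202 to 316) in WT tumor, against 265 CPM in KO normal lung and 208 CPM in WT normal lung, so 1 library, KO tumor, lay apart from the other 3. Neutrophil-like cells lay between 75.8 and 134 CPM.

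Itga5, the alpha chain of the classical fibronectin receptor, and Itga9 were near their floors in lymphocytes. Itga5 was at 0 in B-like cells of 3 libraries and at 2 UMIs in WT normal lung. It lay between 1.52 and 3.6 CPM in T-like cells and between 9.2 and 14.1 CPM in NK-like cells. Dendritic-like cells held 15.7 to 31.3 CPM and neutrophil-like cells 14.2 to 18.9 CPM, below the 31.8 to 41 CPM of alveolar macrophage-like cells. Itga9, which pairs only with beta-1, had no UMI in NK-like, B-like or dendritic-like cells of any library, which allows up to 0.987 to 2.18 CPM in normal lung (3 UMIs) and up to 27.6 CPM in the smallest tumor class. T-like cells gave 1 UMI in KO tumor and 2 and 6 UMIs in KO and WT normal lung. Neutrophil-like cells gave 10 UMIs in KO tumor, 60% of them in 1 cell, and 1 UMI in KO normal lung. Among the main classes it was highest in the monocyte/macrophage-like one, at 21 CPM (18.2 to 24.2) in KO tumor and 3.38 CPM (1.54 to 6.41) in WT tumor, against 14.3 CPM in KO normal lung and 10.2 CPM in WT normal lung. Within its macrophage subset Itga9 was at 35.5 CPM in KO tumor and 4.17 CPM in WT tumor, against 38.6 CPM in KO normal lung and 32.9 CPM in WT normal lung. The WT tumor value stood apart from the other 3.

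The receptors that a cell can assemble depend on both chains. After thinning to 1000 UMIs, Itga4 and Itgb1 were found together in 23% of NK-like cells of KO tumor (14 of 61, 13.2 to 35.5%) and 13.8% of WT tumor (4 of 29), against 14.4% in KO normal lung and 14% in WT normal lung. The products of the separate shares were 17.3%, 21.4%, 12.6% and 12.3% in the same order, and before thinning the pair was found in 72.1%, 79.3%, 64.1% and 54.5%. In T-like cells of normal lung the pair was found in 2.49% (1.76 to 3.41%) in KO and 3.07% (2.29 to 4.02%) in WT, beside products of 1.79% and 1.73%. At this thinning Itgav with Itgb3 or Itgb5 was found together in 0 cells of the T-like, NK-like, B-like, dendritic-like and neutrophil-like classes in every library, which for the largest class, 1630 T-like cells of WT normal lung, leaves shares of up to 0.226% (upper exact limit), but of up to 11.9% for the 29 NK-like or dendritic-like cells of WT tumor. In those 1630 T-like cells the products of the separate shares were 0.0371% with Itgb3 and 0.00128% with Itgb5, so 0 cells says little about pairing. Without thinning Itgav and Itgb3 met in 32 of 1493 T-like cells in KO normal lung and 13 of 1632 in WT normal lung. These were 2.14% and 0.797%, beside products of 1.24% and 0.865%. Itgav and Itgb5 met in 10 of 181 dendritic-like cells of KO normal lung and 3 of 29 of WT tumor. These were 5.52% and 10.3%, beside products of 3.02% and 2.38%.

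The tumor was compared with normal lung within each genotype, and the 2 comparisons share no library. Of immune cells with only Xist or only Y-linked RNA, WT tumor held the former and KO tumor almost only the latter. Both normal libraries held both kinds, so sex-linked RNA differed in each comparison too. Tumor and normal libraries also came from different 10x software versions (3.1.0 and 3.0.1), which cannot be told apart from the tissue. Over the 5 classes of lymphocytes, dendritic-like and neutrophil-like cells, 33 of 40 pairs of member and class were measured in KO, of which 7 were higher and 5 lower in tumor. In WT 30 were measured, of which 5 were higher and 3 lower. Over all features in the same classes, 11.9% were called higher and 5.93% lower in KO, and 12.7% higher and 3.75% lower in WT. The members' higher calls in WT were near that share, and the other shares lay above it by few pairs. Scaling by the median gene brought Itgb1 and Itga4 in T-like cells of KO and Itga4 in B-like cells of WT under the limit. The members' median log2 ratio was 0.2 in KO and 0.33 in WT, beside 0.13 and 0.28 over all features. The CPM of the typical gene also differed between tumor and normal cells: by 0.28 in KO and 0.39 in WT on the log2 scale in T-like cells, 0.18 and 0.28 in B-like, 0.15 and 0.3 in dendritic-like, and at most 0.2 in NK-like and neutrophil-like cells. In all, 5 pairs were called in the same direction in both genotypes, 41.7% of the 12 calls in KO and 62.5% of the 8 in WT, and 0 in opposite directions (31.2% and 37.4% for all features). These were Itgb1 and Itgb5 in T-like cells, Cd44 in dendritic-like cells, and Cd44 and Itgb1 in neutrophil-like cells.

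**Figure D2:**
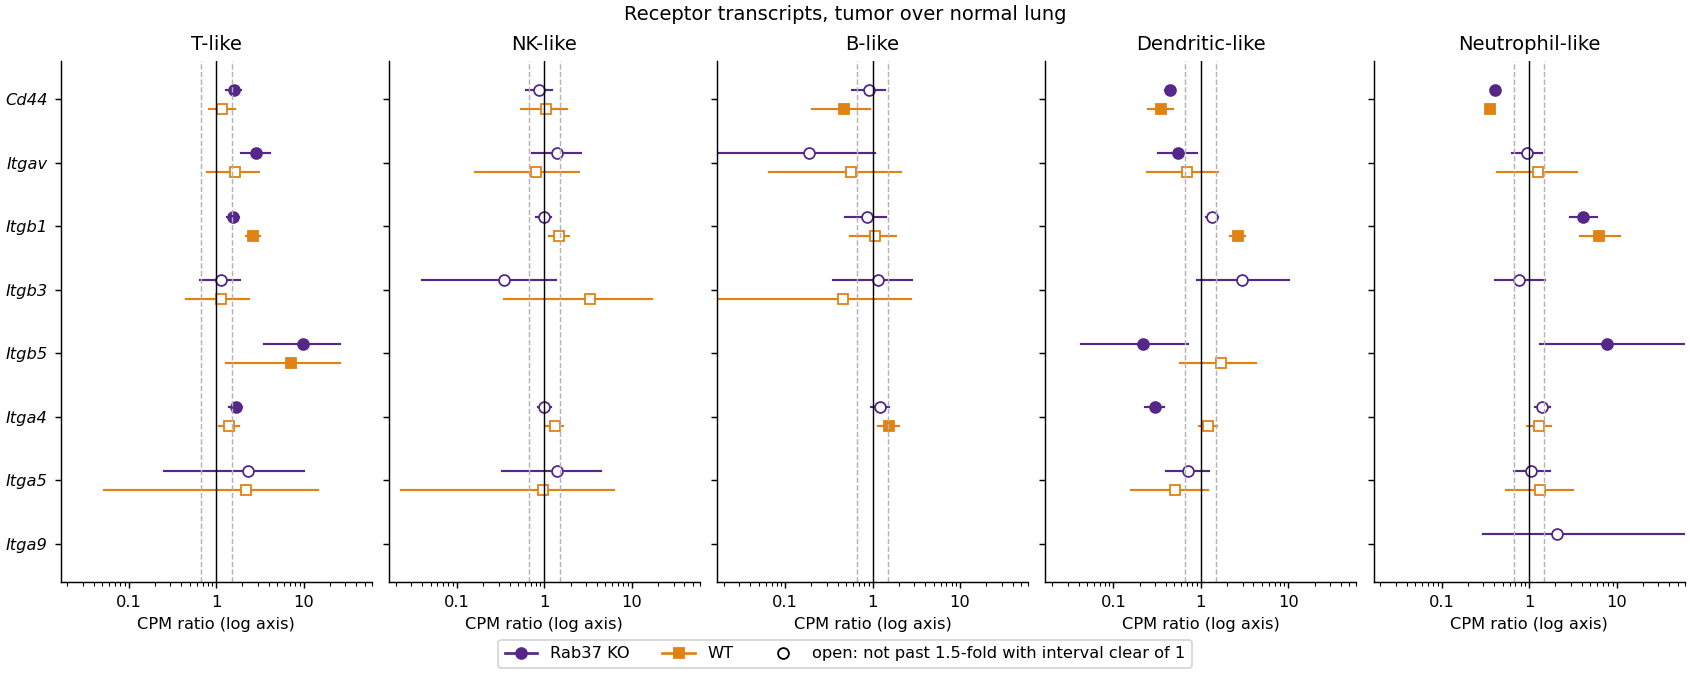
Ratio of tumor to normal lung (log axis) for each member and class, Rab37 KO above WT, with exact 95% intervals cut at 1/60 and 60; filled points were called. Itgb1 lies above 1 in T-like, dendritic-like and neutrophil-like cells of both genotypes, and Cd44 lies below 1 in dendritic-like and neutrophil-like cells of both.

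In T-like cells the called members, 5 in KO and 2 in WT of 7 measured, were all higher in tumor, where 13.6% of all features were higher and 2.82% lower in KO, and 15.5% higher and 2.29% lower in WT. Itgb1 was 1.57-fold (1.33 to 1.85) higher in KO and 2.65-fold (2.17 to 3.2) in WT. Scaling by the median gene left 1.29 in KO, under the limit, and 2.02 in WT. Itgav was 2.84-fold higher in KO (1.93 to 4.09), where Itga4 was 1.67-fold higher (1.42 to 1.96; 1.37 after the same scaling). Itgb5 was 9.95-fold higher in KO (3.57 to 25.9) and 7.14-fold in WT (1.3 to 26), from 8 and 3 tumor UMIs, 4 of the 8 in 1 cell. Thinned to 1000 UMIs, 0 of 85 and 1 of 57 T-like cells of KO and WT tumor held Itgb5, beside 1 of 1488 in KO normal lung and 1 of 1630 in WT normal lung. Cd44 was 1.59-fold higher in KO (1.3 to 1.94), with 26 of its 113 UMIs in 1 cell, and 1.06 without the 3 T-like cells that held RNA of another lineage.

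RNA of other lineages was also higher in T-like cells of the tumors. The 8 neutrophil markers summed to 1963 CPM in KO tumor and 1536 CPM in WT tumor, against 277 CPM in KO normal lung and 34.5 CPM in WT normal lung, with Cxcr2 and G0s2 at 0 in WT tumor. The 7 macrophage markers summed to 473 and 2270 CPM in KO and WT tumor, against 67.5 and 71.2 CPM in KO and WT normal lung. Spp1 itself, a myeloid and tumor product, was at 141 CPM in KO tumor and 320 CPM in WT tumor, against 2.5 CPM in KO normal lung and 3.49 CPM in WT normal lung. Itgb5 and Cd44 are both abundant in myeloid cells, and the part of foreign RNA in their T-like values was not tested further. Without the cells holding RNA of another lineage Itgb5 was 8.09-fold higher in KO and 6.54-fold in WT, and Itgb1 1.64-fold and 2.84-fold.

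T-like cells of the tumors also differed in makeup. The T-like cluster with the most cells was cluster 5 in tumor, with 41.2% of T-like cells in KO and 22.8% in WT, and cluster 2 in normal lung, with 35.2% in KO and 32.4% in WT. Foxp3, the lineage factor of regulatory T cells, was found in 14.1% of T-like cells of KO tumor and 12.3% of WT tumor, against 2.75% of KO normal lung and 2.45% of WT normal lung.

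Within normal lung the T-like cells were deep enough to compare subsets inside a library. Among those with Cd8a or Cd8b1 and no Cd4, cells with Ccl5, a chemokine of effector and memory cells, held 95.8 CPM of Cd44 against 30.1 CPM in cells without Ccl5 in the KO library (290 and 381 cells). In the WT library the values were 83 and 25 CPM (248 and 411 cells). The ratios were 3.18 (2.41 to 4.24) and 3.33 (2.41 to 4.66). Itgb1 differed more: 182 against 39.7 CPM in KO and 136 against 30.1 CPM in WT, ratios of 4.58 (3.64 to 5.82) and 4.51 (3.4 to 6.05). Itgb3 was 2.09-fold and 2.7-fold higher with Ccl5, whereas Itga4 was at 1.23-fold and 0.979-fold and Itgav at 1.08-fold and 0.925-fold. Thus Cd44 and both beta chains were higher with Ccl5 in both libraries and the 2 alpha chains were not called. Of the Ccl5-positive cells, 35 of 290 and 36 of 248 held a single Ccl5 UMI.

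Foxp3-positive cells stood out for Itgav. They held 102 CPM (69.9 to 144) in KO normal lung (41 cells) and 106 CPM (66.1 to 160) in WT normal lung (40 cells). Cells with Cd8a or Cd8b1 held 12.8 and 12.6 CPM with Ccl5, and 11.8 and 13.7 CPM without it, in KO and WT. The intervals of Foxp3-positive cells lay apart from those of both Cd8 subsets in each library. Between the normal libraries Foxp3-positive cells were not called for Itgav, at 0.969 (0.546 to 1.75), but differed in other members: Cd44 was at 220 CPM in KO against 101 CPM in WT, a ratio of 2.19 (1.33 to 3.76), Itga4 at 182 against 81.5 CPM, a ratio of 2.23 (1.28 to 4.09), and Itgb1 at 252 against 413 CPM, a ratio of 0.612 (0.445 to 0.84). In tumor 12 Foxp3-positive cells of KO held 19 Itgav UMIs, 166 CPM, and 7 of WT held 1 UMI, 29 CPM. T-like cells with Trdc, the constant gene of the delta receptor chain, held 346 CPM of Cd44 in KO normal lung (118 cells) and 204 CPM in WT normal lung (79 cells). Those values lay apart from the 95.8 and 83 CPM of Cd8 cells with Ccl5.

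**Figure D3:**
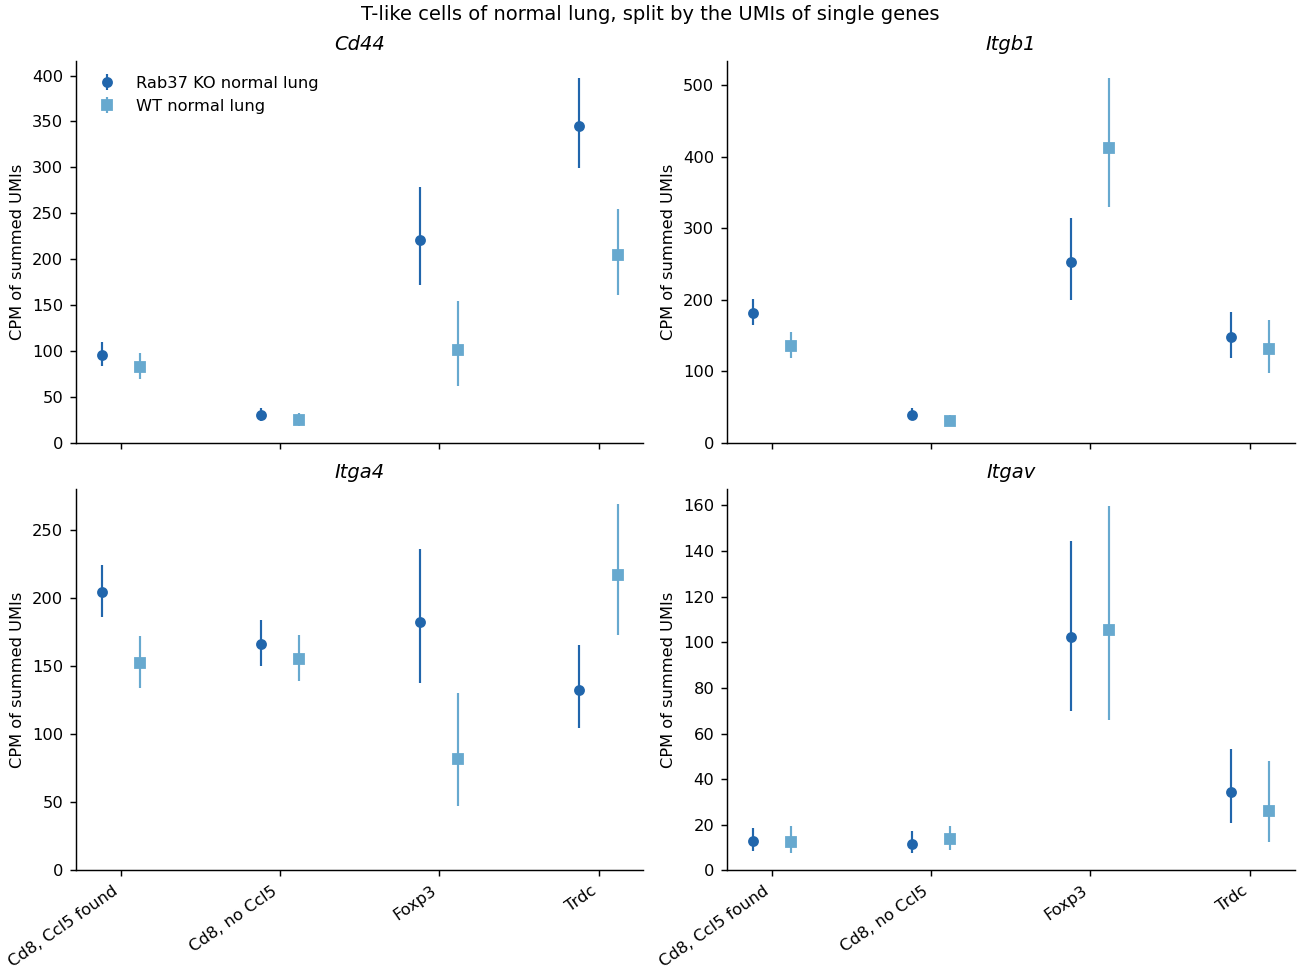
Level of Cd44, Itgb1, Itga4 and Itgav (CPM, axis from 0) in T-like subsets of Rab37 KO normal lung (left) and WT normal lung (right), with exact Poisson 95% intervals. Of the 4 subsets shown, Itgav is highest in Foxp3-positive cells, at 102 and 106 CPM, and Cd44 in cells with Trdc, at 346 and 204 CPM.

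Dendritic-like cells had less Cd44 in tumor than in normal lung. In this class 12% of all features were called higher and 13.6% lower in tumor in KO, and 12.7% higher and 5.34% lower in WT. The ratio was 0.444 (0.385 to 0.511) in KO and 0.355 (0.252 to 0.487) in WT. Itgb1 ran the other way, 2.63-fold higher in WT (2.17 to 3.17), while KO, at 1.35-fold, was under the limit. In KO 3 more members were lower in tumor: Itga4, at 0.298 (0.233 to 0.377), Itgav, at 0.552 (0.325 to 0.899), and Itgb5, at 0.221 (0.0431 to 0.71), from 3 tumor UMIs. The 8 neutrophil markers summed to 3213 CPM in dendritic-like cells of KO tumor and 10626 CPM of WT tumor, against 2227 CPM of KO normal lung and 1935 CPM of WT normal lung. When each cell was named by its own markers instead of its cluster, the KO ratios were 0.768 for Cd44, 0.949 for Itgav and 0.593 for Itgb5, and only Itga4 kept a call in KO (0.248 to 0.417 over all alternatives).

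The makeup of the class differed as well. Cluster 11.3, a conventional type 2 (cDC2-like) cluster, held 65.7% of dendritic-like cells in KO tumor and 27.6% in WT tumor and 0 in normal lung, where no cluster held more than 26.6% of the class. Clusters left without a dendritic type held 5.97% of the class in KO tumor, 6.9% in WT tumor, 38.7% in KO normal lung and 38% in WT normal lung. One of them, cluster 11.4, scored 1.702 for conventional type 1 markers and 1.65 for type 2 markers. The cDC2-like shares and levels of normal lung thus depend in part on that naming. All cDC2-like clusters together held 77.6% of the class in KO tumor, 58.6% in WT tumor, 33.7% in KO normal lung and 37.1% in WT normal lung. Within cDC2-like cells alone (52, 17, 61 and 88 cells in that order), Cd44 was at 262 CPM in KO tumor and 165 CPM in WT tumor, against 647 CPM in KO normal lung and 398 CPM in WT normal lung. The tumor ratios there, 0.405 in KO and 0.414 in WT, were close to those of the class. Itgb1 was 1.87-fold (1.5 to 2.36) higher in KO and 2.49-fold (1.9 to 3.25) in WT, so it was called in both genotypes within cDC2-like cells. Itga4 was at 0.322 (0.234 to 0.439) in KO and 0.522 (0.33 to 0.792) in WT, lower in both. The 6 mature dendritic-like cells of WT tumor, a class absent from the 67 cells of KO tumor, held 1222 CPM of Itga4, against 539 CPM in the 12 of KO normal lung and 695 CPM in the 4 of WT normal lung.

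Neutrophil-like cells of the tumors had less Cd44 and more Itgb1. Of all features in this class, 20.8% were called higher and 7.46% lower in tumor in KO, and 21.6% higher and 8.88% lower in WT. Cd44 stood at 0.404 (0.39 to 0.418) in KO and 0.357 (0.323 to 0.393) in WT. Itgb1 was 4.15-fold higher in KO (2.97 to 5.97) and 6.38-fold in WT (3.87 to 11). Those ratios moved to 2.33 and 1.98 when each cell was named by its own markers, and to 3.47 and 3.44 with called doublets kept. Macrophage markers summed to 557 CPM in KO tumor and 801 CPM in WT tumor, against 232 CPM in KO normal lung and 297 CPM in WT normal lung, and their part in Itgb1 was not tested. Itgb5 was 7.81-fold higher in KO (1.32 to 317), against a single UMI in normal lung, and 1.28-fold with cells named one by one.

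Tumor and normal neutrophil-like cells lay mostly in different clusters. Cluster 3 held 97.3% of neutrophil-like cells in KO normal lung and 96.1% in WT normal lung, while clusters 6, 7 and 17 held 44.7%, 40% and 14.2% of those in KO tumor and 36.8%, 49.1% and 8.96% in WT tumor. Itgb1 and Itga4 split the tumor clusters in opposite ways. Itgb1 was at 144 CPM in cluster 6 of KO tumor and 295 CPM of WT tumor, against 48.4 and 108 CPM in cluster 7. Itga4 was at 76.4 and 32 CPM in cluster 6 of KO and WT tumor, against 197 and 212 CPM in cluster 7. By a rule that did not use clusters, KO tumor cells with at least 3 UMIs of the chemokines Ccl3 and Ccl4 held 109 CPM of Itgb1 against 27.2 CPM in mature cells with fewer, a ratio of 4 (2.16 to 8.4). In WT tumor the values were 172 and 124 CPM, a ratio of 1.38 (0.788 to 2.57). Itga4 was lower in the cells with Ccl3 and Ccl4, at 0.708 (0.543 to 0.938) in KO tumor and 0.545 (0.323 to 0.932) in WT tumor, of which the WT ratio passed the limit. Of these mature KO tumor cells, the 1007 with Ccl3 and Ccl4 held 87 Itgav UMIs and the 127 others 0. Immature cells, holding the granule genes Ngp, Ltf and Camp, made up 14.3% of neutrophil-like cells in KO tumor and 7.55% in WT tumor, and those of KO tumor held less Itga4 (0.475) and more Itgb1 (2.75) than mature cells with few Ccl3 and Ccl4 UMIs.

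In NK-like and B-like cells few features of any kind were called between tumor and normal lung. In NK-like cells 4.06% of all features were higher and 3.31% lower in KO, and 6.12% higher and 2.07% lower in WT, so the 0 called of 6 measured members in each genotype is what the background gives. In B-like cells the shares were 7.28% higher and 2.28% lower in KO, where 0 of 5 members were called, and 9.61% higher and 2.07% lower in WT. B-like cells of WT had less Cd44 in tumor, at 0.473 (0.202 to 0.946), and more Itga4, at 1.53-fold (1.16 to 1.98), which was 1.26-fold after scaling by the median gene.

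Rab37 KO was compared with WT within tumor and within normal lung. In tumor, 26 of 40 pairs of member and class were measured, of which 3 were higher and 2 lower in KO, against 4.4% of all features higher and 6.89% lower, so the share of lower pairs was near the background. Their median log2 ratio was 0.16, against −0.1 over all features, and the scaling of the typical gene lay between −0.14 and −0.1 on the log2 scale in each class. In normal lung, 31 pairs were measured, with 1 higher and 0 lower, against 3.19% of all features higher and 2.12% lower, so the single call is at the background share. There the members' median log2 ratio was 0.18, against 0.03.

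In tumor the 3 higher pairs were all Cd44. In dendritic-like cells the ratio of KO to WT was 1.85 (1.32 to 2.66), in B-like cells 2.32 (1.02 to 5.96, from 25 UMIs against 8) and in T-like cells 1.53 (1.05 to 2.3). The T-like ratio was 1.31 without the cell that held the most Cd44 and 1.05 without cells of mixed lineage, so it lost its call in both, as it did at 1.4 with called doublets kept. NK-like cells, at 1.26 (0.668 to 2.56), and neutrophil-like cells, at 1.43 (1.31 to 1.56), were not called, and neutrophil-like cells passed the limit at 1.57 after scaling by the median gene. Within cDC2-like cells the ratio was 1.59 (1.1 to 2.36). The Cd44 ratio was above 1 in all 5 classes. With 1 library a group, this compares 2 libraries that also differ in sex-linked RNA.

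Both lower pairs were integrins of dendritic-like cells. Itgb1 stood at 0.583 (0.476 to 0.717) and Itga4 at 0.31 (0.225 to 0.428). Within cDC2-like cells Itgb1 was at 0.711 (0.555 to 0.917) and Itga4 at 0.612 (0.376 to 1.02), neither called, and the mature dendritic-like cells with the most Itga4 were found in WT tumor alone. In the other classes the Itgb1 ratio of KO to WT tumor lay below 1 without passing the limit: 0.674 (0.527 to 0.863) in T-like, 0.702 (0.517 to 0.96) in NK-like, 0.914 in B-like and 0.674 (0.535 to 0.859) in neutrophil-like cells.

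**Figure D4:**
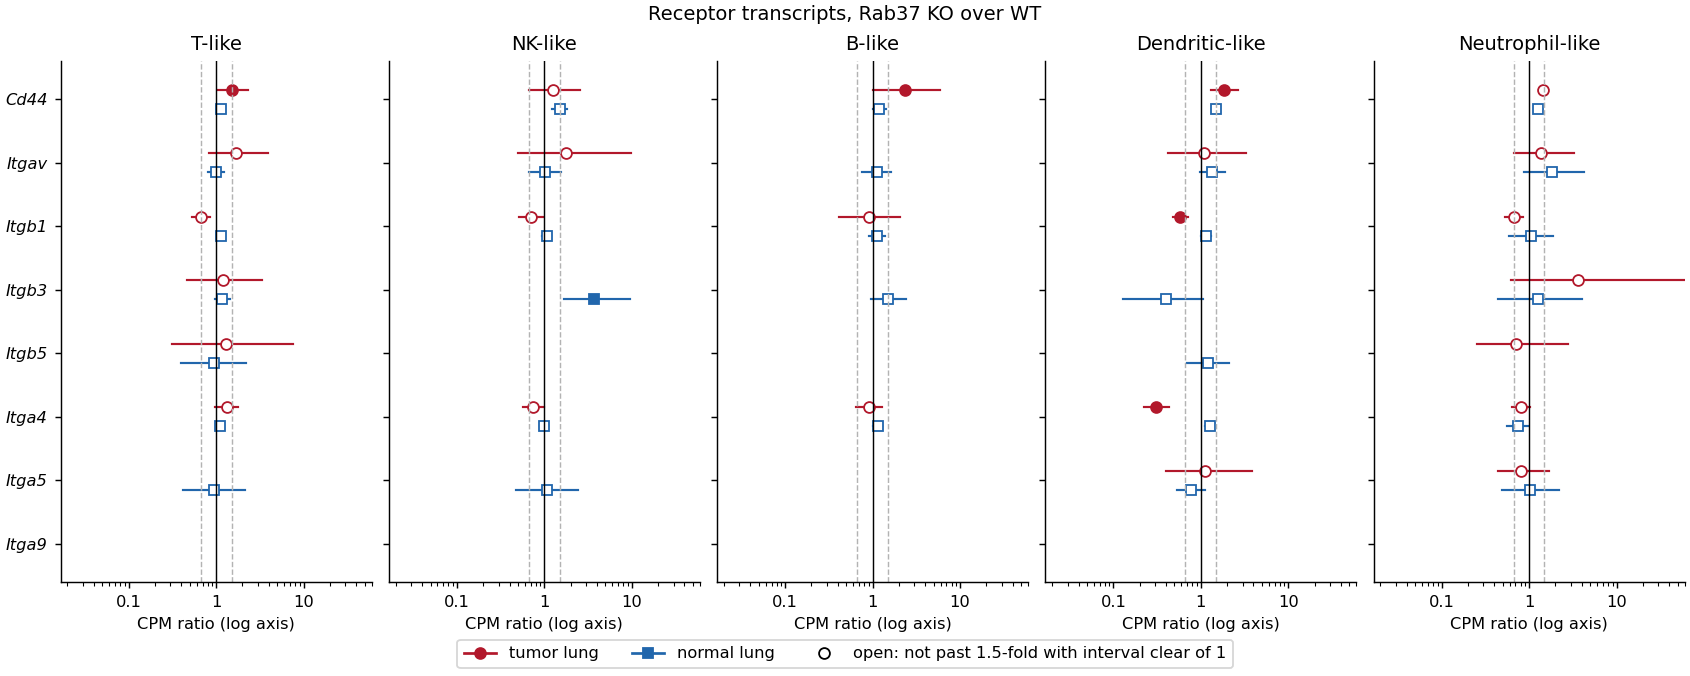
Ratio of Rab37 KO to WT (log axis) for each member and class, tumor above normal lung, with exact 95% intervals cut at the axis limits; filled points were called. In tumor Cd44 lies above 1 and Itgb1 below 1 in all 5 classes, whereas in normal lung Itgb1 lies between 1.04 and 1.14.

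In normal lung the Cd44 ratios ran from 1.13 in T-like cells through 1.2 in B-like, 1.26 in neutrophil-like and 1.48 (1.36 to 1.62) in dendritic-like to just under the limit in NK-like cells (interval 1.23 to 1.84). None was called. Within cDC2-like cells of normal lung, however, Cd44 was 1.63-fold (1.41 to 1.87) and Itgav 2.55-fold (1.27 to 5.39) higher in KO. Itgb1 ratios lay between 1.04 and 1.14 in the 5 classes. The pair that was called was Itgb3 in NK-like cells, with 28 UMIs and 20.4 CPM in KO against 8 UMIs and 5.47 CPM in WT, a ratio of 3.73 (1.66 to 9.46). It was found in 23 of 295 KO cells and 6 of 380 WT cells (median depths of 4230 and 3594.5 UMIs), or 7.8% and 1.58%, against 0.56% and 0.602% of the alveolar macrophage-like cells of the same libraries, the class with the least Itgb3. Among cells holding only Xist the ratio was 10.6, from 10 UMIs against 1, and among cells holding only Y-linked transcripts 1.53 (0.459 to 5.79).

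The monocyte/macrophage-like class differed in makeup between libraries, so its receptors are given by subset. The macrophage subset was 21.9% of the class in KO tumor and 66.8% in WT tumor, against 25.9% in KO normal lung and 21.1% in WT normal lung. Classical monocytes were 69.3% in KO tumor, 26.6% in WT tumor, 22.8% in KO normal lung and 22.3% in WT normal lung. The class leaves out 246 unnamed cells of KO tumor and 7 of WT tumor. These were split from the same first cluster as some of the classical monocytes. Within the macrophage subset of tumor the ratio of KO to WT was 1.9 (1.71 to 2.1) for Cd44, 2.24 (1.68 to 3.02) for Itgav and 8.5 (4.31 to 19.1) for Itga9. Itgb5 there was at 0.854 (0.721 to 1.01) and Itgb1 at 0.939, both nearer 1 than for the class as a whole, at 0.597 and 0.791. Against normal lung, the macrophage subset of WT tumor held less Cd44 (0.614), Itgav (0.481) and Itga9 (0.127, 0.0543 to 0.263), while in that of KO tumor the same genes stood at 1, 1.07 and 0.919.

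The cells carrying Hmga2, a chromatin protein of embryonic and tumor cells, and Rhox5, an X-linked homeobox gene, had been presumed to be carcinoma cells. At least 3 UMIs of the 2 genes were found in 48 cells of KO tumor and 13 of WT tumor. CD45 RNA was scarce in them, although the cells had been sorted for CD45: Ptprc, its gene, gave 116 UMIs in 9 of the 48 cells, 30.9 CPM, in KO, and 1 UMI, 1.6 CPM, in WT. Their median depth was 79076 UMIs in KO and 39328 UMIs in WT. Epcam, an epithelial surface marker, was at 0 in both, Krt18 at 143 and 249 CPM, Vim at 3685 and 3329 CPM and the collagen gene Col3a1 at 1375 and 1909 CPM in KO and WT. The cluster that held 44 and 12 of them was led by Rhox5, Col3a1, Cald1 and Hmga2 and scored highest for fibroblast markers, so the data do not establish the name carcinoma, and the cells are called by their rule. Of them, 32 of 48 in KO held only Xist and 5 only Y-linked transcripts, against 1 and 1657 of the other 2677 cells of that library. In WT 9 of 13 held only Xist, as did 408 of the other 631 cells. In KO their sex-linked RNA thus differed from that of the other cells, and their origin was not tested.

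The members are given here in the order of their levels in these cells. Itgb1 led, at 424 CPM (403 to 445) in KO tumor and 693 CPM (630 to 762) in WT tumor, and was found in every cell. Cd44 followed, at 163 CPM (150 to 177) in KO and 102 CPM (78.7 to 130) in WT, then Itgav, at 55.2 CPM in KO and 35.1 CPM in WT, Itga5, at 35.7 and 30.4 CPM, and Itgb5, at 26.1 and 41.5 CPM. These 3 stood in that order in KO, while in WT Itgb5 was above Itgav and Itga5 and the intervals of all 3 overlapped. Itgb3 gave 5 UMIs in KO and 0 in WT, and Itga9 9 UMIs in KO and 0 in WT. Itga4 gave 24 UMIs in KO, 14 of them in 1 cell, and 0 in WT, a lower bound of 1.34-fold against a floor of 3 UMIs. Itgav was found in 91.7% of the KO cells and 76.9% of the WT cells and Itga5 in 85.4% and 61.5%, but these cells are far deeper than the other classes. Thinned to 1000 UMIs, Itgav was found in 1 of 48 KO cells and 0 of 13 WT cells, Itga5 in 2 and 1, Itgb5 in 0 and 1, and Itgb1 in 15 and 9. Neutrophil-like cells of the same tumors, at 1257 and 881 CPM, held far more Cd44. Itgb1 first and Cd44 next was also the order in dendritic-like cells of KO tumor, at 271 and 233 CPM. The same held for monocyte/macrophage-like cells of WT tumor, at 411 and 295 CPM.

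Of all features in these cells 6.66% were called higher and 5.47% lower in KO. Of 6 measured members, Cd44 was 1.6-fold (1.23 to 2.1) and Itgav 1.57-fold (1.01 to 2.56) higher in KO, and Itgb1 lower, at 0.612 (0.55 to 0.682). Itga4, with 24 UMIs against 0, also passed as higher, since its ratio has no upper value, but its bound of 1.34-fold is under the limit. Itgb5, at 0.629 (0.405 to 1.01), and Itga5, at 1.18, were not called. Over the alternatives tried, Cd44 lay between 1.41 and 1.85, Itgav between 1.53 and 1.84, and Itgb1 between 0.597 and 0.649. Immune RNA was higher in the KO cells: neutrophil markers summed to 961 CPM in KO against 11.2 CPM in WT, and macrophage markers to 574.5 against 14.4 CPM. Leaving out 3 KO cells with RNA of another lineage gave the Cd44 value of 1.41, under the limit. The 3 KO cells just inside the rule, with 3 or 4 UMIs of Hmga2 and Rhox5, held 432 CPM of Cd44, 18 of the 24 Itga4 UMIs and 441 CPM of Ptprc. Just outside it, with 1 or 2 UMIs, 44 KO cells held 895 CPM of Cd44 and 850 CPM of Ptprc, and 5 WT cells 273 and 371 CPM.

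**Figure D5:**
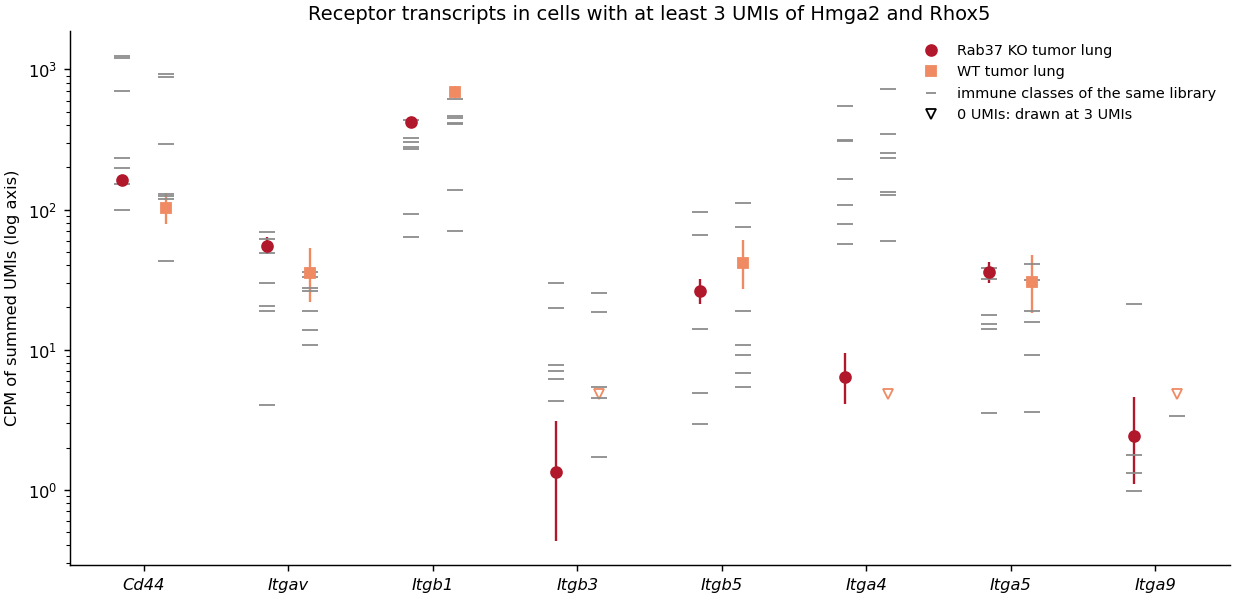
Level of the 8 members (CPM, log axis) in cells with at least 3 UMIs of Hmga2 and Rhox5, 48 of Rab37 KO tumor and 13 of WT tumor, with exact Poisson 95% intervals, open triangles at 3 UMIs where none was counted, and grey dashes for the immune classes of the same library. Itgb1 leads in both, at 424 and 693 CPM, and Itga4, Itgb3 and Itga9 lie at the bottom.

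Genes that work with the receptors were followed through 4 lists in the same 5 classes. Of the other integrin subunits, 42 of 75 pairs were measured between tumor and normal lung in KO, with 4 higher and 10 lower, and 40 in WT, with 6 higher and 7 lower, beside all-feature shares of 11.9% higher and 5.93% lower in KO and 12.7% and 3.75% in WT. Itgam, the alpha chain of the myeloid integrin Mac-1, was higher in T-like cells in both, 18.5-fold in KO and 8.66-fold in WT, and in dendritic-like cells, 4.49-fold and 1.9-fold. The 8 neutrophil markers were higher in the same cells: 1963 and 1536 CPM in T-like cells of KO and WT tumor, against 277 and 34.5 CPM in KO and WT normal lung, and 3213 and 10626 CPM in dendritic-like cells of the tumors, against 2227 and 1935 CPM. Their part in Itgam was not tested. Itgal, the alpha chain of LFA-1, was lower in dendritic-like cells, at 0.309 in KO and 0.226 in WT, and in neutrophil-like cells, at 0.507 and 0.406. Itgb7, the other beta partner of alpha-4, was lower in dendritic-like cells, at 0.606 in KO and 0.569 in WT. Between KO and WT the list gave 6 higher and 3 lower of 31 pairs in tumor, where 4.4% of all features were higher and 6.89% lower. In normal lung it gave 1 higher and 2 lower of 41, beside 3.19% and 2.12% of all features. Among the lower pairs of tumor was Itgae, the alpha chain of resident T cells, at 0.259 in T-like cells.

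The genes of integrin activation and the adhesion complex gave 7 higher and 2 lower of 63 pairs in KO tumor and 6 higher and 0 lower of 61 in WT tumor, against the same shares of 11.9% and 12.7% higher, so their higher calls were at or under the background. Fermt3, which encodes kindlin-3, an activator of leukocyte integrins, was higher in T-like cells, 1.53-fold in KO and 2.22-fold in WT, and in neutrophil-like cells, 1.87-fold and 2.78-fold. Tln1, encoding talin-1, was higher in T-like cells, 1.54-fold in KO and 1.65-fold in WT. The typical gene of T-like cells stood at 1.22-fold in KO and 1.31-fold in WT, and relative to it only Fermt3 in WT passes 1.5-fold among these 4 T-like values. Between KO and WT this list gave 1 higher and 4 lower of 54 pairs in tumor, with Fermt3 at 0.594 and Tln1 at 0.649 in neutrophil-like cells. In normal lung it gave 1 higher and 0 lower of 61. The all-feature shares were 4.4% higher and 6.89% lower in tumor, and 3.19% and 2.12% in normal lung. The CD44 linkers and hyaluronan genes gave at most 3 calls in a direction. Between tumor and normal lung 2 were higher and 1 lower of 27 pairs in KO, beside 11.9% and 5.93% of all features. In WT 3 were higher and 1 lower of 23, beside 12.7% and 3.75%. Between KO and WT 0 were higher and 2 lower of 24 in each tissue, beside the shares just given for that comparison. Cd74, the invariant chain, which also binds CD44, made up both lower pairs in each tissue, at 0.174 in NK-like cells of tumor. The macrophage markers in NK-like cells summed to 84.5 CPM in KO tumor and 571 CPM in WT tumor. In T-like cells they summed to 473 and 2270 CPM. The part of foreign RNA in the Cd74 values was not tested.

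Ligands of these receptors gave 10 higher and 1 lower of 15 measured pairs between KO and WT tumor, against 4.4% of all features higher and 6.89% lower, and 5 higher and 2 lower of 15 in normal lung, against 3.19% and 2.12%. Thbs1 was higher in KO in all 5 classes, 8.42-fold in T-like cells and 14.9-fold in B-like cells, and Fn1 12.2-fold in neutrophil-like cells. Spp1 was lower in T-like cells of KO tumor, at 0.439, and higher in neutrophil-like cells, at 1.89. These genes are made mainly by myeloid cells: Thbs1 was at 3418 CPM in monocyte/macrophage-like cells of KO tumor and 817 CPM of WT tumor, and the part of free RNA in the lymphocytes' values was not tested. Against normal lung, ligands were 10 higher and 2 lower of 18 in KO tumor, beside 11.9% and 5.93% of all features. In WT tumor 3 were higher and 1 lower of 12, beside 12.7% and 3.75%. Spp1 in T-like cells led, 56.2-fold higher in KO and 91.8-fold in WT. Thbs1 in neutrophil-like cells ran the other way, at 0.277 in KO and 0.192 in WT. Vtn, encoding vitronectin, had 0 UMIs in every class.

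Across 37 units of 1 class in 1 library, the genes most like each member were ranked by Pearson r of log2(CPM + 10) over 6884 genes, as a description, since units share libraries and depth. Cd44 ran with Msrb1 (0.927), Fpr1 (0.926) and Cd33 (0.918), and Itgb5 with Cd302 (0.912), Fblim1 (0.909) and Acp2 (0.908). Itga4 ran with Akna (0.894), Arhgap45 (0.883) and Ptpn18 (0.878), Itgb1 with Fkbp1a (0.865), Atp5j (0.861) and Ahnak (0.854), and Itga5 with Zfhx3 (0.885), Vim (0.879) and Itpripl2 (0.875). Itgav ran with Ptpn13 (0.825), Hlf (0.798) and Nfkb1 (0.789), Itgb3 with Inpp4b (0.814), St6galnac3 (0.796) and Cxcr6 (0.786), and Itga9 with Gas6 (0.963), Pmp22 (0.925) and Vcam1 (0.883). Among the members themselves Itgb5 and Itga5 were most alike (0.78) and Itgb3 and Itga5 most opposed (−0.65), while Itga4 and Itgb1, which form 1 receptor, gave −0.01.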

How the data were processed

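Live CD45-positive lung cells of 4 libraries, 1 per group, were read on Chromium 3' v2 chemistry, per the labels' protocols. The values the authors deposited are unnormalized UMI counts, made with 10x Genomics software 3.0.1 (normal lung) and 3.1.0 (tumor), per the file headers, on mm10, per the submitters' processing notes. The aligner and the read filters are not given in the sources used here.

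Barcodes were kept from 200 genes upward and with no more than 10% of UMIs from mt- genes, which 13344 of 14396 barcodes passed. Scrublet marked 266 further cells, which were removed, but under 0.5% of each tumor library (4 and 3 cells), so it cannot be taken to have worked there. Cells were clustered with scanpy 1.11.5 and leidenalg 0.10.2 (2000 variable genes, 30 components, 15 neighbours, resolution 1). A cluster took a class name from at least 3 detected markers, and 253 cells stayed unnamed. Levels are CPM of UMIs summed per class and library, with exact Poisson intervals. Ratios carry exact conditional binomial intervals and shares Clopper-Pearson intervals, from scipy 1.17.1. All are 95% intervals of counting error, and UMIs of 1 library are not replicates, so no test was made. The call rule was also tested on simulated counts.

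The members and gene lists were chosen with earlier results of these data known. Named were all 8 members, up to 4 genes per list and comparison with the largest called ratios, and for each member the 3 genes with the highest r. The genes Itgal, Itgb7, Tln1 and Itgam were also followed across classes beyond that rule after their values were seen. ILC2-like cells were described after their values were seen. Subsets of T-like and neutrophil-like cells are cut from per-cell UMIs and are ranges, not types. The 8 neutrophil, 7 macrophage and other marker lists checked RNA of other lineages. Alternatives changed doublets, cell filters, class naming, weighting, scaling, mixed cells, sex-linked RNA and the call limits. One planned split of T-like cells is not reported here.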

Additional observations from a re-analysis of the deposited data

How the results depend on the processing

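All 26 calls in the 5 classes kept their direction under each alternative where they could be recomputed. Of these, 22 were still called with doublet calls kept, 26 with at least 500 genes, 23 at no more than 5% mitochondrial UMIs, 21 with classes named cell by cell, 21 with the mean of per-cell CPM, 20 without the largest cell, 21 with median-ratio scaling, 22 without cells of mixed lineage and 18 at 2-fold. Only 7 could be recomputed in Xist cells, of which 4 were still called, and 13 in cells with Y-linked RNA, of which 8 were. Between KO and WT tumor the count of called pairs, 5, became 3 with doublet calls kept, 8 with classes named cell by cell and 2 at 2-fold. Between KO and WT normal lung the count, 1, became 2 with doublet calls kept, 2 with at least 500 genes, 4 at no more than 5% mitochondrial UMIs, 3 cell by cell and 2 in Xist cells. Between tumor and normal lung in WT the count, 8, became 4 in Xist cells, where fewer cells were left. Itgb3 in monocyte/macrophage-like cells reversed between tumor and normal lung in Rab37 KO, at 1.01 with the mean of per-cell CPM against 0.414 from summed UMIs, and the cause was not tested. No paired analysis was possible because each group has 1 library. The few lymphocytes and dendritic-like cells of WT tumor limit every tumor value.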

Other observations

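Cells that took no class name were found almost only in KO tumor, 246 of 253. All came from the splitting of cluster 9, whose other parts, 9.0, 9.2 and 9.4, were named classical monocyte. The monocyte/macrophage-like values leave them out. Their largest cluster, of 133 KO cells, scored highest for platelet markers on 2 genes and next for neutrophil markers. Its leading genes began with Ppbp, Arg1, Pf4 and Ccl24. It held 1099 CPM of Cd44, 78.6 CPM of Itgav, 218 CPM of Itgb1 and 12.5 CPM of Itga9. A cluster of 65 KO and 3 WT cells held 874 CPM of Cd44 and 116 CPM of Itgav in its KO cells, and one of 29 KO cells held 600 CPM of Cd44 and 715 CPM of Itgb1.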
